A study of Mus musculus with 10 samples.

Results

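The 47 genes described here encode the machinery that copies the genome and the proteins that open the way to S phase. They were taken from a list of replication, nucleotide synthesis and G1/S genes, and all 47 were found by symbol among the 25579 genes of the deposited expression tables. The list holds 7 roles, namely the licensing of replication origins, activation of the replicative helicase, DNA polymerases and primase, the sliding clamp with its loader and the proteins of the lagging strand, nucleotide synthesis, maintenance methylation, and cyclin E with the activating E2F factors. RNA from mouse bone marrow cells of the C57BL/6 strain was sequenced for 4 Pax5 genotypes with 2 libraries each, to ask what B cell progenitors lose when the DNA-binding paired domain of the transcription factor Pax5 carries the R31Q substitution. Pax5+/+ cells have both wild-type alleles, Pax5+/- cells have 1, Pax5 R31Q/- cells have the mutant allele over a null allele, and Pax5-/- cells are Pax5 fl/fl with Vav-Cre, a recombinase expressed across the haematopoietic system. By the study's account the cells of all 4 genotypes were pro-B cells sorted straight from bone marrow, but the labels call the first 3 genotypes pro-B cells and the Pax5-/- cells progenitor cells. The ages of the mice and the sort gate of the Pax5-/- cells are not given in the sources used here, so cell stage and genotype cannot be told apart in comparisons with Pax5-/-. Because the labels do not say whether the libraries of a genotype came from separate mice, the p-values measure the spread between these libraries, which may be technical. Pax5 binding was mapped in 1 library each of pro-B cells cultured for a short time, and there the wild-type Pax5 cells were Rag2-/-.

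Replication is prepared in G1, when the origin recognition complex, Cdc6 and Cdt1 load the ring of Mcm2 to Mcm7 onto DNA, and geminin blocks Cdt1 once S phase has begun so that no origin is licensed again. Cyclin E with Cdk2 and the kinase Cdc7 then turn the loaded rings into active helicases with Cdc45 and the GINS proteins. Most of these genes are classical targets of the E2F factors, which are held back by the retinoblastoma family until cyclin D and cyclin E kinases release them, and pro-B cells that respond to interleukin 7 are among the fast-dividing cells of the bone marrow.

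Each library held between 21625407 reads on genes (Pax5-/- library 1) and 34488454 reads (Pax5 R31Q/- library 1), as recovered from the expression values. The Pax5 transcript itself gave 418 and 444 TPM (a level scaled for gene length and library size) in Pax5+/+, 272 and 287 in Pax5+/-, 306 and 293 in Pax5 R31Q/- and 1242 and 1409 in Pax5-/-, so whole-gene counts do not show the deletion. Of 13 pro-B markers, 8 were lower in Pax5-/- than in Pax5+/+ and 1 was higher. The 7 markers of pre-B and later B cells summed to 129 TPM in both Pax5 R31Q/- libraries, to 195 and 331 TPM in Pax5-/- and to between 214 and 306 TPM in the other 4 libraries. Of the 6 tested, 2 were lower in Pax5 R31Q/- than in Pax5+/+, and 4 were lower and 1 higher in Pax5-/-. The 12 myeloid markers summed to 2260 TPM in Pax5-/- library 1 and to 407 TPM in library 2, against 429 to 1563 TPM in the other 6 libraries. The 11 T and NK cell markers summed to 350 and 316 TPM in Pax5-/- against 93.3 to 132 TPM elsewhere, mainly through Lck, and Cd3e, Cd3d and Cd3g reached at most 0.666 TPM in any library. The 9 erythroid markers summed to 88.1 and 25.1 TPM in Pax5-/- and to between 125 and 235 TPM elsewhere. Within Pax5+/+, library 2 lay below library 1 for 42 of the 47 members, against 50.2% of the 13436 genes tested, so medians over the members are given with and without it. The part of these differences between libraries in the results was not tested.

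The promoters were read first, because the 4 letter strings bound by E2F factors most often (TTTCCCGC, TTTGGCGC, TTTCGCGC and TTTGCCGC, on either strand) are the textbook mark of this gene class. RefSeq promoter windows on the mouse build GRCm38.p6, from 250 bases before to 50 bases after a transcription start, were given for 38 of the 47 members. The other 9 (Gins1, Gins2, Gins4, Ccne2, Pole, Prim2, Mcm4, Rfc2 and Gmnn) had no window. E2F-type letters stood in a window of 17 of the 38 members (44.7%), compared with 4.7% of 9998 genes that were tested for expression and had a window, and with 2.6% of all 27025 genes that had one. The string CCAAT, bound by NF-Y, stood in a window of 24 members (63.2%) compared with 43% of the tested genes. The stretches below are those of the 6 members that held E2F-type letters and passed the expression test between Pax5-/- and Pax5+/+, in order of the size of their change, and of Rrm2, the most changed member that had a window without E2F-type letters. Capitals mark the E2F-type letters and, where present, CCAAT.

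E2f2: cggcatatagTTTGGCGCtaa
Cdt1: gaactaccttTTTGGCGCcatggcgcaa
Mcm6: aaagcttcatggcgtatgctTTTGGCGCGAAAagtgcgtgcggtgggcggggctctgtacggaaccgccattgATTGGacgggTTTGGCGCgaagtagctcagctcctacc
Gins3: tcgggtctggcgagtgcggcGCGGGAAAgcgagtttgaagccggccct
Mcm3: aacttccgtgGCGGGAAAacttgggaag
Lig1: gccaaagtgcGCGCGAAAtctgtgtggc
Rrm2: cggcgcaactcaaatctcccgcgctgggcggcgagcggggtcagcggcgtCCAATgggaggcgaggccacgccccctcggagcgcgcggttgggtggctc

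The E2f2 stretch lies at chr4:136172303-136172323 on the plus strand, and its letters begin 40 bases into the transcript. The Cdt1 stretch is chr8:122568037-122568064 on the plus strand, with letters beginning 33 bases into the transcript. The Mcm6 stretch is chr1:128359725-128359835 on the minus strand and holds 3 matches before the start, of which 2 overlap head to head, and 1 CCAAT on its opposite strand. The Gins3 stretch is chr8:95633498-95633545 on the plus strand, with letters beginning 41 bases before the start. The Mcm3 stretch is chr1:20820276-20820303 on the minus strand and the Lig1 stretch is chr7:13278842-13278869 on the plus strand, with letters beginning 20 and 27 bases into the transcript. The Mcm3 window holds 2 matches, and the stretch shows the first of them. The Rrm2 stretch is the 100 bases before the start, chr12:24708154-24708253 on the plus strand. Except for that of E2f2, each of these stretches lay inside a Pax5 peak of the wild-type list, and all 7 lay inside a peak of the Pax5 R31Q/- list. Among the members with E2F-type letters, 3 were higher and 3 lower in Pax5-/- than in Pax5+/+, and among the 21 members with a window but without these letters 1 was higher and 7 lower. Of all genes tested, 16.2% were higher and 19.7% lower, so the members with the letters lay near the background in both directions.

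In level, the members spanned a wide range, from Orc1 (the large subunit of the origin recognition complex) at a mean of 17.5 TPM over the 8 libraries to Pcna (the sliding clamp) at 1298 TPM. Together they made up between 0.823% and 1.22% of all TPM of a library. The lowest number of reads behind any member value was 172, for Ccne2 in Pax5-/- library 1. In RefSeq the exons of 13 members overlap those of another gene (Orc1, Mcm7, Cdc45, Gins1, Gins2, Pold2, Rfc4, Rpa1, Fen1, Lig1, Tk1, Ccne2 and E2f1), and whether the counting used the strand is not given in the sources used here, so their values may hold reads of the neighbour. Pcna and Tyms have processed copies elsewhere in the genome that can share reads with them. As the map of all members by library shows, the Pax5-/- columns held values on both sides of Pax5+/+, with the rows of Mcm2 to Mcm7 above it and those of cyclin E, E2f2 and Rrm2 below it.

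**Figure D1:**
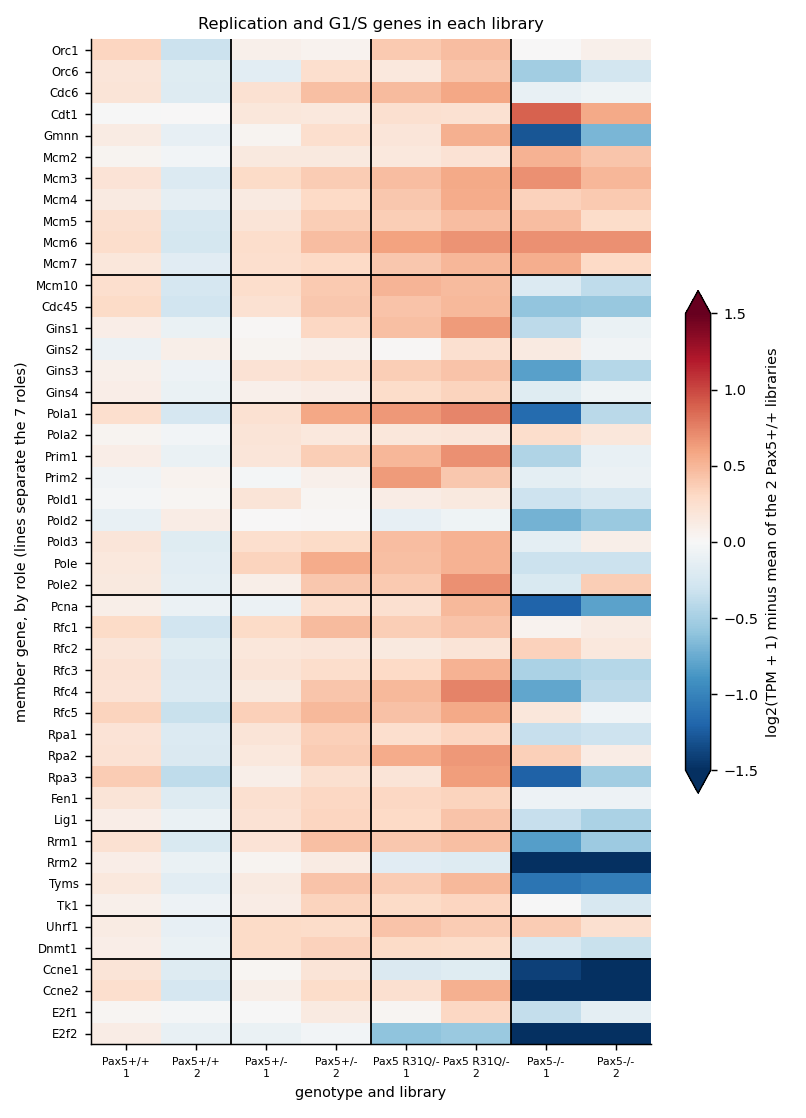
Each row is 1 of the 47 members and each column 1 library. Colour gives log2(TPM + 1) minus the mean of the 2 Pax5+/+ libraries, and values beyond 1.5 in either direction have the end colour. In Pax5-/- the Mcm2 to Mcm7 rows are red, while Rrm2, Ccne1, Ccne2 and E2f2 are dark blue, and most rows are pale red in Pax5 R31Q/-.

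Between Pax5-/- and Pax5+/+, 16 of the 47 members passed the test, in both directions. Transcripts of E2f2, of both E-type cyclins, of the ribonucleotide reductase subunit Rrm2, of thymidylate synthase and of the sliding clamp were lower in Pax5-/- than in Pax5+/+, whereas transcripts of Cdt1 and of 3 subunits of the Mcm ring were higher. In limma on log2(TPM + 1), with p-values adjusted by Benjamini-Hochberg over all 13436 genes tested, 12 members were lower (25.5%) and 4 were higher (8.51%) at an adjusted p under 0.05. Of all genes tested, 19.7% were lower and 16.2% higher in this comparison, so in this fit the members were near the background in the lower direction and below it in the higher one. The members' median log2 fold change was -0.26, compared with -0.11 for all genes tested. It was -0.127 under quantile normalization (all genes -0.0126), -0.145 without Pax5+/+ library 1 (all genes -0.103), -0.284 without Pax5+/+ library 2 (all genes -0.107), -0.151 without Pax5-/- library 1 (all genes 0.0122) and -0.24 without Pax5-/- library 2 (all genes -0.215). Both Pax5-/- libraries lay below both Pax5+/+ libraries for 24 members (51.1%, compared with 36.4% of all genes) and above them for 9 (19.1%, compared with 27.2%). In such bulk samples, fewer cells in a phase of the cycle and less RNA per cell cannot be told apart. Under the rule of over 3-fold with a mean above 5 TPM in 1 of the genotypes, 3 members were lower and 0 higher in Pax5-/-, compared with 3.82% and 3.07% of all genes, a background that includes the immunoglobulin genes. The 3 were Rrm2, Ccne2 and E2f2. Median-ratio scaling gave 5 members higher and 11 lower (10.6% and 23.4%, compared with 19.6% and 18.6% of all genes), quantile normalization 8 and 11 (17% and 23.4%, compared with 20.2% and 18.5%), and limma-voom on recovered reads 7 and 11 (14.9% and 23.4%, compared with 20.6% and 18.7%). The place of the members against the background turned on the Pax5+/+ library used. Without Pax5+/+ library 1 the split was 9 higher and 7 lower (19.1% and 14.9%, compared with 13.2% and 15.5% of all genes), and without Pax5+/+ library 2 it was 3 and 19 (6.38% and 40.4%, compared with 13.2% and 14%). Without Pax5-/- library 1, the shallowest and the richest in myeloid transcripts, it was 2 and 9 (4.26% and 19.1%, compared with 17.1% and 15.1%). Without Pax5-/- library 2 it was 4 and 13 (8.51% and 27.7%, compared with 16.4% and 31.3%). For this comparison 14 fits were counted, and of single libraries they left out only those of the 2 genotypes compared. In each of the 14 that left out no single library 7 members passed, namely Cdt1 as higher and Pcna, Rrm2, Tyms, Ccne1, Ccne2 and E2f2 as lower.

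**Figure D2:**
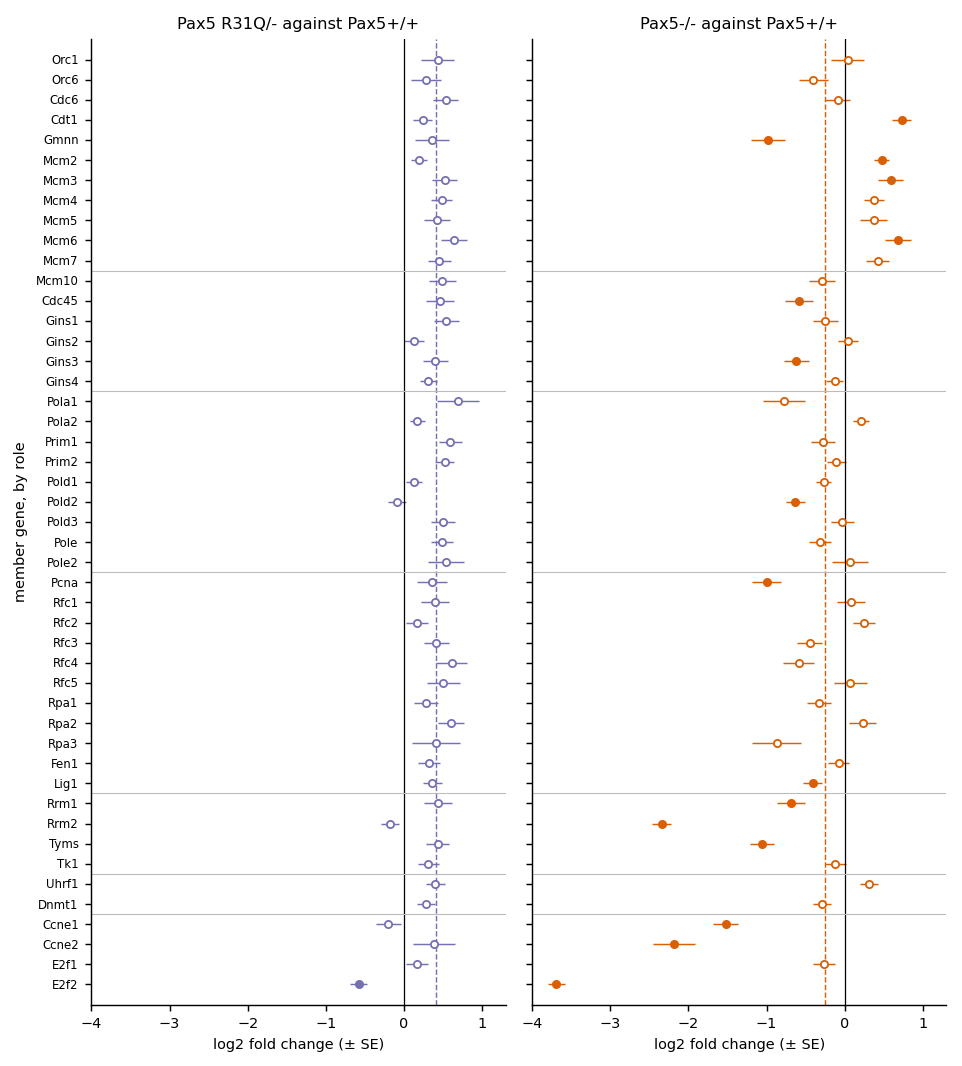
Points are log2 fold changes of the 47 members against Pax5+/+ and bars are standard errors. Filled points passed an adjusted p of 0.05, and the dashed line is the median of the members. In Pax5 R31Q/-, 43 points sit to the right of 0 and 4 to the left, among them the 1 filled point, E2f2, at -0.58. In Pax5-/- they spread from -3.69 to 0.73.

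Among the licensing genes, Cdt1 and 3 subunits of the ring were higher and geminin was lower in Pax5-/-, where 16.2% and 19.7% of all genes were. The other 6 of the 11 members of this role did not pass the test. Cdt1, the loader that geminin blocks, gave 133 and 134 TPM in Pax5+/+, 150.5 and 149 in Pax5+/-, 158 and 156 in Pax5 R31Q/-, and 247 and 198 in Pax5-/-. Both Pax5-/- libraries were above all others, with a log2 fold change against Pax5+/+ of 0.73 (SE 0.12, adjusted p = 0.00333). Gmnn, which encodes geminin, gave 209 and 175 TPM in Pax5+/+, 197 and 229 in Pax5+/-, 217 and 278 in Pax5 R31Q/-, and 78.3 and 119 in Pax5-/-. The null libraries were the lowest 2 of the 8, and the log2 fold change against Pax5+/+ was -0.98 (SE 0.22, adjusted p = 0.0108). The Gmnn call was lost without Pax5+/+ library 1 (0.0741), without Pax5-/- library 1 (0.051) and with only the 2 genotypes in the fit (0.0547). As a ratio inside each library, Cdt1 to Gmnn stood at 0.634 and 0.763 in Pax5+/+ and at 3.16 and 1.67 in Pax5-/-, and the 4 other libraries lay between 0.562 and 0.765. The ratio thus passed 1 in Pax5-/- and in no other genotype.

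All 6 subunits of the ring had a higher level in both Pax5-/- than in both Pax5+/+ libraries, as did 27.2% of all genes. Their log2 fold changes were positive in each of the 14 fits. Mcm2, Mcm3 and Mcm6 passed the test, with log2 fold changes of 0.47, 0.59 and 0.68 and adjusted p-values of 0.00981, 0.0219 and 0.0174. Mcm4 at 0.37, Mcm5 at 0.37 and Mcm7 at 0.42 did not, with adjusted p-values of 0.0603, 0.135 and 0.057. Mcm3 no longer passed without Pax5+/+ library 2 (0.0828) or Pax5-/- library 1 (0.1), and Mcm6 without either Pax5-/- library (0.0694 and 0.0531). The number of subunits that passed ran from 0, with only the 2 genotypes in the fit, to 6 without Pax5+/+ library 1. Mcm7, the most abundant licensing member, gave 468 and 372 TPM in Pax5+/+, 498 and 516 in Pax5+/-, 553 and 591 in Pax5 R31Q/-, and 611 and 512 in Pax5-/-. The 6 subunits also lay higher in both Pax5 R31Q/- than in both Pax5+/+ libraries, as did 34.6% of all genes. Their log2 fold changes there ran from 0.19 (Mcm2) to 0.64 (Mcm6), and 0 passed the test. The most abundant subunit exceeded the least abundant one by 1.89 to 2.28 times within a library, with no gap between genotypes. Orc1 gave 19.7 and 12.4 TPM in Pax5+/+, 16.6 and 16.3 in Pax5+/-, 20.9 and 21.9 in Pax5 R31Q/-, and 15.8 and 16.5 in Pax5-/-, and its null libraries lay between the Pax5+/+ libraries (log2 fold change 0.04, adjusted p = 0.886).

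**Figure D3:**
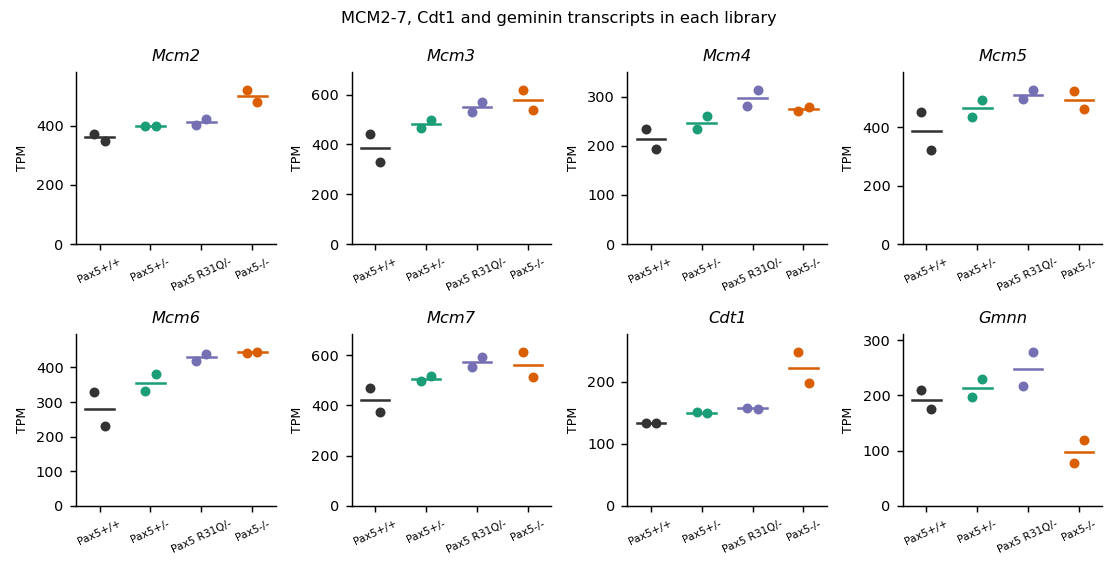
TPM of the 6 Mcm ring subunits, Cdt1 and Gmnn in the 4 genotypes. Points are libraries, lines are means of 2, and every axis starts at 0. Cdt1 is highest in Pax5-/- (247 and 198 TPM) and Gmnn lowest there (78.3 and 119 TPM).

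Of the 6 helicase activators, which turn the loaded ring into a moving helicase, 0 were higher and 2 lower in Pax5-/-, and 4 did not pass. Against the 19.7% of all genes that were lower, a share of 2 in 6 is not read as a direction of the group. Cdc45, the factor that joins ring and GINS, gave 104 and 69.6 TPM in Pax5+/+, 100.1 and 113 in Pax5+/-, 115 and 119 in Pax5 R31Q/-, and 56.2 and 56.9 in Pax5-/-. Its null libraries were below all others (log2 fold change -0.58, SE 0.18, adjusted p = 0.0399), a call that held in 5 of the 14 fits and was lost without Pax5+/+ library 1 (adjusted p = 0.116) and without either Pax5-/- library (0.126 and 0.0922). Gins3, the least abundant GINS subunit, gave 24.6 and 21.9 TPM in Pax5+/+, 27.0 and 27.7 in Pax5+/-, 30.2 and 31.6 in Pax5 R31Q/-, and 12.8 and 17.0 in Pax5-/-, again with the null libraries lowest (log2 fold change -0.62, SE 0.16, adjusted p = 0.0194, but 0.0894 without Pax5+/+ library 1 and 0.134 with only the 2 genotypes in the fit). Its partner Gins2 did not pass, with 137 and 154 TPM in Pax5+/+, 149 and 153 in Pax5+/-, 147 and 172 in Pax5 R31Q/-, and 159 and 140.1 in Pax5-/- (log2 fold change 0.04, adjusted p = 0.825). The remaining GINS subunits, Gins1 and Gins4, had log2 fold changes of -0.25 and -0.13 and did not pass, and differences between subunits were not tested.

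Among the 9 polymerase and primase members, 1 was lower in Pax5-/- and 0 were higher, compared with 19.7% and 16.2% of all genes tested. Pold2, an accessory subunit of the lagging-strand polymerase, gave 168 and 198 TPM in Pax5+/+, 183 and 185 in Pax5+/-, 168 and 175 in Pax5 R31Q/-, and 111 and 124 in Pax5-/-. The null libraries lay below the other 6 (log2 fold change -0.63, SE 0.12, adjusted p = 0.00494, and 0.0537 with only the 2 genotypes in the fit). Pola1, the catalytic subunit of the polymerase that starts each new strand, had a larger change with a wider spread, at 51.5 and 36.0 TPM in Pax5+/+, 50.8 and 65.0 in Pax5+/-, 68.0 and 72.2 in Pax5 R31Q/-, and 18.7 and 32.3 in Pax5-/- (log2 fold change -0.78, SE 0.27, adjusted p = 0.058). Pold1, the catalytic subunit of the same enzyme as Pold2 and the most abundant of the group, gave 360.3 and 375 TPM in Pax5+/+, 420 and 375 in Pax5+/-, 399 and 406 in Pax5 R31Q/-, and 296 and 312 in Pax5-/- (log2 fold change -0.27, adjusted p = 0.0778). Pole2, the least abundant, gave 34.5 and 27.8 TPM in Pax5+/+, 32.9 and 41.4 in Pax5+/-, 41.1 and 50.4 in Pax5 R31Q/-, and 26.4 and 40.2 in Pax5-/-, where the null libraries enclosed both Pax5+/+ libraries. The remaining 5 polymerase genes had log2 fold changes between -0.32 (Pole) and 0.21 (Pola2).

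Of 11 members of the clamp, its loader, the single-strand binding complex RPA and the enzymes that join the lagging strand, 2 were lower in Pax5-/- and 0 higher. Of all genes tested, 19.7% were lower and 16.2% higher, so the lower count lay near the background. Pcna encodes the ring that holds polymerases on DNA. It gave 1432 and 1268 TPM in Pax5+/+, 1265 and 1599 in Pax5+/-, 1586 and 1881 in Pax5 R31Q/-, and 584 and 772 in Pax5-/-. The null libraries were the lowest 2 of the 8, and the log2 fold change was -1.0 (SE 0.19, adjusted p = 0.00499). Lig1, the ligase that seals lagging-strand fragments, had a log2 fold change of -0.41 (SE 0.12, adjusted p = 0.0314) that held in 7 of the 14 fits and was lost without Pax5+/+ library 1 (0.113) or Pax5-/- library 2 (0.0759). Rfc4, a subunit of the clamp loader, gave 91.0 and 68.0 TPM in Pax5+/+, 87.0 and 105 in Pax5+/-, 110.2 and 132.5 in Pax5 R31Q/-, and 45.3 and 59.7 in Pax5-/-, which did not overlap Pax5+/+ and missed the threshold (log2 fold change -0.59, adjusted p = 0.0544). The smallest RPA subunit Rpa3 gave 174 and 102 TPM in Pax5+/+, 142 and 158 in Pax5+/-, 152 and 206 in Pax5 R31Q/-, and 56.7 and 92.3 in Pax5-/- (log2 fold change -0.87, SE 0.31, adjusted p = 0.0601). The other loader subunits Rfc1, Rfc2, Rfc3 and Rfc5 had log2 fold changes of 0.08, 0.25, -0.45 and 0.07, and 0 of the 5 loader subunits passed.

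Nucleotide synthesis held Rrm2, the member with the largest drop after E2f2, and 3 of its 4 genes were lower in Pax5-/-. The share over all genes tested was 19.7%. Ribonucleotide reductase, which makes the deoxynucleotides for replication, joins a large subunit (Rrm1) to a small one that rises in S phase (Rrm2). Rrm2 gave 594 and 518 TPM in Pax5+/+, 570.5 and 604 in Pax5+/-, 495 and 485 in Pax5 R31Q/-, and 101 and 116 in Pax5-/-. The mean in Pax5+/+ was 5.11 times that in Pax5-/- (log2 fold change -2.34, SE 0.12, adjusted p = 1.52e-05). Rrm1 moved less, with a log2 fold change of -0.69 (SE 0.18, adjusted p = 0.0208), and the ratio of Rrm1 to Rrm2 was 0.483 and 0.4 in Pax5+/+ against 1.36 and 1.43 in Pax5-/-. Tyms, the thymidylate synthase, gave 67.4 and 53.8 TPM in Pax5+/+, 66.4 and 81.5 in Pax5+/-, 78.6 and 84.8 in Pax5 R31Q/-, and 27.7 and 28.8 in Pax5-/- (log2 fold change -1.06, SE 0.15, adjusted p = 0.00148). Rrm2 and Tyms were lower in both null libraries than in any other library. Thymidine kinase, Tk1, which salvages the same nucleotide, gave 173 and 156 TPM in Pax5+/+ and 164 and 139 in Pax5-/-, which overlapped (log2 fold change -0.12, adjusted p = 0.491). The Rrm1 call was lost without Pax5+/+ library 1 (adjusted p = 0.0934) and without Pax5-/- library 1 (0.108).

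Uhrf1 and Dnmt1, which copy DNA methylation onto the new strand, did not pass in either direction. Uhrf1 gave 639 and 536 TPM in Pax5+/+, 715 and 707 in Pax5+/-, 785 and 764 in Pax5 R31Q/-, and 763 and 693 in Pax5-/- (log2 fold change 0.31, adjusted p = 0.0822). Dnmt1 gave 367 and 321 TPM in Pax5+/+, 418 and 435 in Pax5+/-, 419 and 414 in Pax5 R31Q/-, and 290.5 and 272 in Pax5-/- (log2 fold change -0.29, adjusted p = 0.0742). The recruiter was thus above Pax5+/+ in both null libraries and the methyltransferase below it in both.

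Of the 4 genes of cyclin E and the activating E2F factors, 3 were lower in Pax5-/-, compared with 19.7% of all genes tested. Among the 3 was E2f2, the member with the largest drop. E2f2 gave 331 and 284 TPM in Pax5+/+, 286 and 299 in Pax5+/-, 202 and 209 in Pax5 R31Q/-, and 23.2 and 22.5 in Pax5-/-. The mean in Pax5+/+ was 13.5 times that in Pax5-/- (log2 fold change -3.69, SE 0.11, adjusted p = 1.57e-06), and the 3 levels of +/+ with +/-, of R31Q/- and of -/- did not overlap. Its relative E2f1 gave 70.6 and 68.2 TPM in Pax5+/+ and 53.8 and 62.4 in Pax5-/- (log2 fold change -0.26, adjusted p = 0.181). E2f1 thus lay below E2f2 in Pax5+/+, with a ratio of E2f1 to E2f2 of 0.213 and 0.24, and above it in Pax5-/-, with a ratio of 2.32 and 2.77. Ccne2, one of the E-type cyclins that drive entry into S phase, gave 43.1 and 30.0 TPM in Pax5+/+, 38.4 and 43.7 in Pax5+/-, 42.7 and 52.4 in Pax5 R31Q/-, and 5.33 and 9.56 in Pax5-/- (log2 fold change -2.18, SE 0.27, adjusted p = 0.000772). Ccne1, the other, gave 73.1 and 56.1 TPM in Pax5+/+, 65.3 and 73.4 in Pax5+/-, 54.8 and 56.3 in Pax5 R31Q/-, and 23.6 and 20.01 in Pax5-/- (log2 fold change -1.52, SE 0.16, adjusted p = 0.000342). Both cyclins were lowest in the 2 null libraries.

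**Figure D4:**
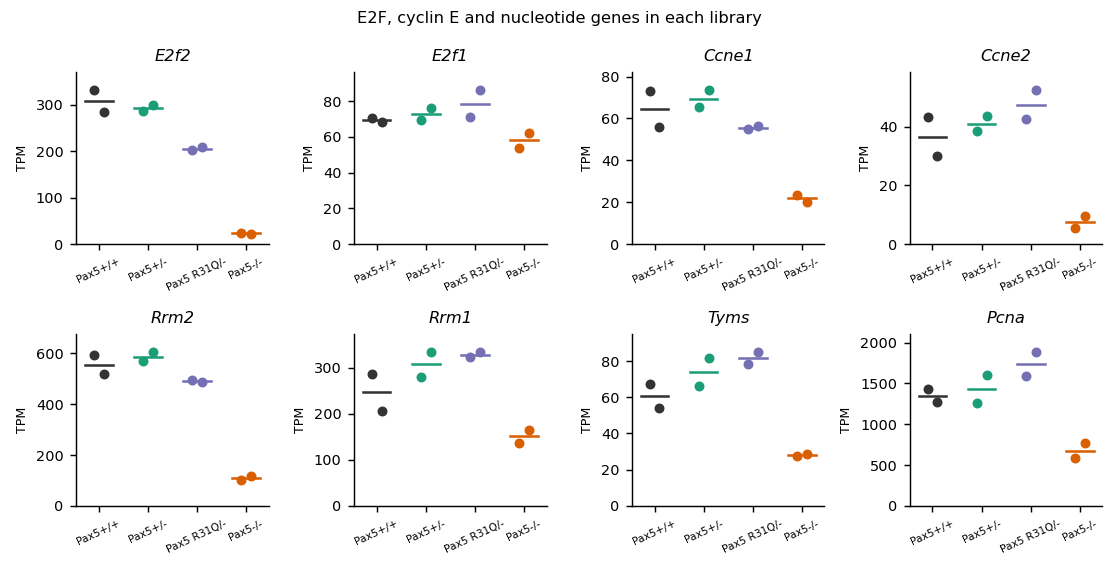
TPM of the E2F, cyclin E, nucleotide synthesis and clamp genes in the 4 genotypes. Points are libraries, lines are means of 2, and every axis starts at 0. E2f2 has an intermediate level in Pax5 R31Q/- (202 and 209 TPM) between Pax5+/+ (331 and 284 TPM) and Pax5-/- (23.2 and 22.5 TPM), while Ccne2, Tyms and Pcna in Pax5 R31Q/- reach or pass the Pax5+/+ level.

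Between Pax5 R31Q/- and Pax5+/+, E2f2 was lower, and most of the other members had levels above Pax5+/+ that did not pass the test. E2f2 was the member that passed the test against Pax5+/+, with a log2 fold change of -0.58 (SE 0.11, adjusted p = 0.0311), or a Pax5+/+ mean 1.5 times the Pax5 R31Q/- mean. This call held in 8 of 14 fits, with adjusted p-values from 0.0241 to 0.22, and it was lost without Pax5+/+ library 1 (0.0604) and without either Pax5 R31Q/- library (0.22 and 0.202). It was also lost without either Pax5+/- library, which enters this comparison through the shared spread alone (0.0863 and 0.0862). Thus 1 member was lower (2.13%) and 0 were higher in limma, compared with 2.55% and 1.62% of all genes tested. At an unadjusted p under 0.05, 28 members were higher and 1 lower, compared with 8.82% and 9.94% of all genes. By limma-voom on recovered reads, 2 were higher and 1 lower, compared with 2.42% and 3.77%. For 43 of the 47 members the log2 fold change was positive, a number that each of the scalings gave again, and the 4 others were Pold2, Rrm2, Ccne1 and E2f2. The median over the members was 0.40, compared with 0.04 over all genes tested. Both Pax5 R31Q/- libraries lay above both Pax5+/+ libraries for 38 members (80.9%), compared with 34.6% of all genes. The size rested in part on Pax5+/+ library 2: without it the median was 0.22 (all genes 0.0375) and without Pax5+/+ library 1 it was 0.59 (all genes 0.0492). In the latter fit 7 members were called higher (14.9%), compared with 1.3% of all genes. The increases were largest for Pola1 (0.69), Mcm6 (0.64) and Rfc4 (0.61), with adjusted p-values of 0.231, 0.0931 and 0.155. Under the 3-fold rule 0 members were called in either direction in limma, compared with 0.298% of all genes higher and 0.558% lower.

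In 4 members (8.51%), Pold2, Rrm2, Ccne1 and E2f2, the Pax5 R31Q/- mean lay below Pax5+/+ and above Pax5-/-, compared with 21.9% of all genes tested. Among these, the Pax5 R31Q/- libraries lay below both Pax5+/+ libraries for Rrm2 and E2f2 (4.26% of the members, compared with 25% of all genes), and the Rrm2 difference did not pass (log2 fold change -0.18, adjusted p = 0.444). In 36 of the 47 members (76.6%, compared with 30.8% of all genes) Pax5 R31Q/- had the highest mean of the 4 genotypes, and in 31 (66%, compared with 47.9%) Pax5-/- had the lowest. These comparisons use the same Pax5+/+ libraries.

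Between Pax5+/- and Pax5+/+ cells, which differ by 1 wild-type allele, 0 of the 47 members passed in limma in either direction, compared with 0% of all genes higher and 0.0223% lower. At an unadjusted p under 0.05, 2 members were higher and 0 lower, compared with 2.91% and 3.15% of all genes, and limma-voom called 0, compared with 0.0524% higher and 0.187% lower. The median log2 fold change of the members was 0.23 (all genes 0.0242), with 46 above 0 and E2f2 at -0.07. Without Pax5+/+ library 2 the median was 0.0878 (all genes 0.0185) with 37 above 0, and without Pax5+/+ library 1 it was 0.395 (all genes 0.0246) with 44 above 0. Between Pax5 R31Q/- and Pax5+/-, 0 members passed as well, compared with 0.268% of all genes higher and 0.35% lower in Pax5 R31Q/-. At an unadjusted p under 0.05, 2 members were higher and 1 lower there, compared with 3.55% and 5.24% of all genes, and limma-voom again called 0, compared with 0.591% and 0.815%. E2f2 had a log2 fold change of -0.51 with an adjusted p of 0.132 in this comparison. The lower E2f2 level in Pax5 R31Q/- was thus not told from Pax5+/- by the test, although the 2 pairs of libraries, 202 and 209 against 286 and 299 TPM, did not overlap.

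Set directly against each other, Pax5 R31Q/- and Pax5-/- cells differed in most of the members. In limma, 30 members were higher in Pax5 R31Q/- (63.8%) and 1 was lower (2.13%), compared with 19.9% and 14.7% of all genes tested. The median log2 fold change was 0.57 over the members and 0.13 over all genes. Members of every role passed as higher, among them 4 of 4 nucleotide genes, 4 of 4 cyclin E and E2F genes, 7 of 9 polymerase genes, 5 of 6 helicase activators and 6 of 11 clamp and lagging-strand genes, but 3 of 11 licensing genes. E2f2 was 9-fold higher by the ratio of means (log2 fold change 3.12, SE 0.11, adjusted p = 7.53e-06), Ccne2 6.38-fold (2.56, SE 0.27, adjusted p = 0.000494) and Rrm2 4.51-fold (2.17, SE 0.12, adjusted p = 4.06e-05). Cdt1 was the member that was lower in Pax5 R31Q/- (log2 fold change -0.49, SE 0.12, adjusted p = 0.0198). The 6 ring subunits had log2 fold changes between -0.28 and 0.11 in this comparison and 0 passed, with adjusted p-values from 0.068 to 0.884. Without Pax5 R31Q/- library 1 the number higher was 17 (36.2%, compared with 7.41% of all genes), and without library 2 it was 15 (31.9%, compared with 8.48%).

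The counts of the other genes of the pathway in Pax5-/- stand against the 16.2% of all genes that were higher and the 19.7% that were lower, and in lists of this size a few calls lie near that background. Of 14 further licensing and firing genes, 1 was higher and 5 lower in Pax5-/-, including Dbf4 (the partner of Cdc7, log2 fold change -1.07), Ticrr (-0.83) and Donson (-0.63). Of 10 tested genes of the fork checkpoint and of licence removal, 1 was higher and 4 lower, led by Fbxo5 (an inhibitor of the anaphase-promoting complex, -2.47), Clspn (-1.26) and Skp2 (-1.11). Of 13 genes that supply nucleotides, 5 were higher and 2 lower, and the 2 were Rrm2b (the p53-responsive small reductase subunit, -2.63) and Dck (deoxycytidine kinase, -1.76), while Impdh2, a purine enzyme, led the higher ones at 0.88. Of 9 chromatin assembly genes, 0 were higher and 3 lower, namely the histone chaperones Asf1b (-2.39) and Asf1a (-0.90) and the histone mRNA-binding protein Slbp (-0.65).

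Of 7 G1 cyclins and kinases, 4 were higher and 2 lower in Pax5-/-. Ccnd2 (cyclin D2) gave 81.3 and 85.1 TPM in Pax5+/+, 134 and 159 in Pax5+/-, 168 and 149 in Pax5 R31Q/-, and 357 and 361 in Pax5-/- (log2 fold change 2.10, adjusted p = 2.59e-05). Ccnd1 (cyclin D1) was also higher (2.61) and Ccna2 (cyclin A2, which acts in S phase and G2) was lower (-2.88). The ratio of Ccnd2 to Ccnd3, the main D-type cyclin of the Pax5+/+ cells, was 0.0713 and 0.0632 in Pax5+/+ and 0.774 and 0.748 in Pax5-/-. In Pax5 R31Q/-, Ccnd2 (0.92, adjusted p = 0.00785) and its kinase Cdk6 (1.42, adjusted p = 0.0146) passed as higher than in Pax5+/+. Of 6 tested CDK inhibitors, 0 were higher and 5 lower in Pax5-/-, led by Cdkn2c (-3.07), Cdkn2d (-2.62) and Cdkn1c (-2.25). Among the 5 lower ones, 1 had a mean of only 0.967 TPM in Pax5+/+. Cdkn1c also passed as lower in Pax5 R31Q/- (-0.89, adjusted p = 0.0264), at low levels of 7.03 and 8.26 TPM in Pax5+/+ and 3.70 and 3.63 in Pax5 R31Q/-. Of 11 retinoblastoma family and other E2F genes, 0 were higher and 5 lower in Pax5-/-, led by the repressors E2f8 (-2.80) and E2f7 (-2.41) and by Rb1 (-1.5), and the E2F partner Tfdp2 was lower in Pax5 R31Q/- as well (-0.87, adjusted p = 0.0109).

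The genes of mitosis set the members in relief. All 18 on the list passed as lower in Pax5-/-, compared with 19.7% of all genes tested. Their median log2 fold change was -2.07, with a range from -3.15 (Ube2c) to -0.80 (Ccnb2), against the members' median of -0.26. Their summed level was 750 and 752 TPM in Pax5-/- and between 2418 and 4031 TPM in the other 6 libraries. In Pax5 R31Q/- 0 of the 18 passed in limma, compared with 1.62% of all genes higher and 2.55% lower. At an unadjusted p under 0.05, 1 passed, compared with 8.82% and 9.94%. Pax5+/+ library 2 was again the lowest of the non-null libraries, at 2418 TPM against 3745 TPM in library 1.

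**Figure D5:**
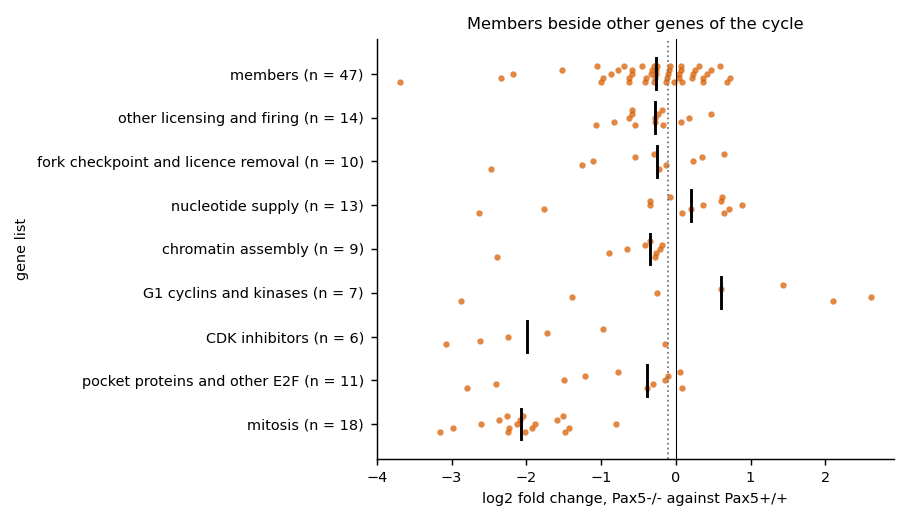
Points are log2 fold changes in Pax5-/- against Pax5+/+ for the members and for 8 other lists of cell cycle genes, with n the number of genes tested. Black bars are medians and the dotted line is the median of all 13436 genes tested (-0.11). All 18 mitosis genes lie left of 0, with a median of -2.07, while the members spread on both sides.

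Pax5 peaks were frequent at the starts of the members in both chromatin libraries, of which the wild-type one came from Rag2-/- cells. The labels of the other conflict, since one field attaches R31Q/- to Pax5 and another to Rag2, and it was taken as Pax5 R31Q/- with an unknown Rag2 status, which cannot be told apart from the Pax5 genotype when the lists are compared. A peak of the wild-type list overlapped the window of 1 kb to each side of an annotated start in 42 of the 47 members (89.4%), compared with 68.2% of 12893 tested genes with a position. In the Pax5 R31Q/- list the number was 45 (95.7%, compared with 73.2%), although that list held 18821 peaks against 41983. Its peaks were wider, with a median of 559 bp against 332 bp. The tested genes were not matched to the members for expression level, and the part of level in these shares was not tested. For 41 of the 42 members with a wild-type peak (97.6%), an R31Q peak met at least 1 wild-type peak at a start, compared with 96% over all genes, so the share lay near the background. Prim1 was the exception, with a wild-type peak of 255 bp at chr10:128015066-128015320 and no R31Q peak, and 1 of 3 wild-type peaks of Tyms, at chr5:30074270-30074635, was not met either. With 1 library a genotype there is no test, and the files give positions without heights.

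Rrm2 and both E-type cyclins, which were lower in Pax5-/-, had a peak at a start in both lists. Rrm2 had a peak at chr12:24707955-24708919 in the wild-type list and at chr12:24707758-24709013 in the R31Q list, both over the stretch printed above. Ccne1 had peaks at chr7:38107247-38108247 and chr7:38106778-38108262 and Ccne2 at chr4:11190844-11191809 and chr4:11190964-11192235. E2f2 differed, since no wild-type peak lay within 1 kb of its 3 annotated starts, while an R31Q peak of 1222 bp at chr4:136172099-136173320 covered the first of them. Both lists held a peak further inside E2f2, in the wild-type list at chr4:136177085-136178432, which touched no exon, and in the R31Q list at chr4:136177097-136178493, with midpoints 5484 and 5521 bases after the gene start. Mcm5, Rpa2 and Tk1 likewise had a peak at a start in the R31Q list alone, and Rfc3 in neither.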

How the data were processed

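RNA was sequenced in 8 libraries, 2 for each of 4 Pax5 genotypes, and Pax5 binding in 2 chromatin libraries. Per the study's methods and the submitters' processing notes, the authors aligned reads with STAR 2.4.2 to GRCm38/mm10, counted unique reads on RefSeq genes and deposited the levels as TPM, which sum to 1000000 in each library and are therefore relative. Peaks were called by the authors per library with MACS after Bowtie2 2.3.5.1 and deposited as positions without heights. Genes with at least 1 TPM in 1 library (13436) were fitted as log2(TPM + 1) with limma 3.58.1 (R 4.3.3), all 4 genotypes sharing 1 estimate of the spread, with eBayes(trend) and Benjamini-Hochberg adjustment over all genes tested. Fold changes on this scale understate the change of low genes. All 47 members passed the filter. The steps between TPM values gave whole reads for all 18206 genes above 0 in at least 2 libraries (tolerance 1e-05). These reads gave the depth and a limma-voom alternative. With 2 libraries against 2, an exact two-sided permutation test of a single value cannot go below p = 0.333, so none was used. The limma and limma-voom fits were tested on simulated data for the comparison of Pax5-/- with Pax5+/+ only.

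The members and lists were chosen with earlier results of these data known. By rule, values in every library are given for 20 members, namely those that passed in Pax5 R31Q/- or Pax5+/- against Pax5+/+, the 2 of each role with the largest change in Pax5-/-, and the highest and lowest of each role. Further lists name up to 3 genes each, by size of change. Ccne1 (also given in every library), E2f1, Tk1, Ccnd2, Cdk6 and Tfdp2, the other members given with a fold change, the ratios between genes and the peaks inside E2f2 were singled out after their values were seen. The alternatives were pseudocounts of 0.1 and 5, 2 other filters, 2 other scalings, eBayes without trend, only the 2 genotypes compared, limma-voom, each library left out, and other peak windows.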

Additional observations from a re-analysis of the deposited data

How the results depend on the processing

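With 2 libraries a genotype and p-values that rest on a spread shared by 4 genotypes, counts of members past the threshold and fold changes both moved with the fit. Between Pax5-/- and Pax5+/+, main counts of 4 higher and 12 lower became 1 and 6 with only the 2 genotypes in the fit, the higher count became 8 under quantile normalization and 7 under limma-voom, and leaving out single libraries of the genotypes compared, as throughout here, gave 2 to 9 higher and 7 to 19 lower (of all genes, 13.2% to 17.1% and 14% to 31.3%). Between Pax5 R31Q/- and Pax5+/+, the higher count of 0 became 1 under quantile normalization and 2 under limma-voom and ran from 0 to 7 when single libraries were left out. The lower count of 1 (E2f2) became 0 with only the 2 genotypes in the fit, under quantile normalization, without the eBayes trend and in 3 of the 4 fits without 1 library (range 0 to 1). Between Pax5 R31Q/- and Pax5-/-, the higher count of 30 ran from 15 to 30 when single libraries were left out. The lower count of 1 became 0 with only the 2 genotypes, 2 under median-ratio scaling, quantile normalization and limma-voom, and ran from 0 to 2 when single libraries were left out. A limit of 2-fold in place of 3-fold raised the lower count in Pax5-/- from 3 to 6. Fits with fewer libraries or genotypes have fewer degrees of freedom, and the cause of these shifts was not tested. The log2 fold changes of 4 named members that had not passed changed sign when single libraries were left out. Against Pax5+/+, these ran from -0.27 to 0.36 for Orc1, from -0.049 to 0.13 for Gins2 and from -0.22 to 0.37 for Pole2 in Pax5-/-, and from -0.21 to 0.025 for Pold2 in Pax5 R31Q/-. Counts of peaks at starts ran from 42 to 43 and from 44 to 45 over the windows. No paired analysis was possible because the labels give no replicate numbers shared between genotypes.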
